A study of Homo sapiens with 7 samples.

Results

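Spliceosomal small nuclear RNAs (snRNAs) were examined by total RNA sequencing of PF-382 and MOLT-14, 2 human cell lines from T-cell acute lymphoblastic leukaemia, after knockout or transduction of the cohesin gene STAG2. Genes were chosen by their annotation and their counts: a gene was taken when its biotype was snRNA, its symbol began with RNU or RNVU and its count reached 10 in at least 2 of the 7 libraries. The rule left 28 genes of 1818 rows with such symbols, and of 60662 genes in all. By class they were 16 U1 genes of 133 rows, 3 U2 genes of 71, 2 U4 genes of 90, 6 U5 genes of 31 and 1 U6atac gene of 41. No U6 row (1277), U7 row (149), U11 row (6), U12 row (2) or U4atac row (18) reached the threshold. The U7 rows fall under the symbol rule but belong to histone pre-mRNA processing and not to the spliceosome.

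PF-382 was represented by 2 wild-type libraries without treatment and 3 libraries of cells in which STAG2 had been knocked out with Cas9 and guide RNA delivered as ribonucleoprotein. MOLT-14 was represented by 1 library of cells transduced with an empty vector and 1 of cells transduced with STAG2, so that no spread between replicates is known there. The labels say nothing of separate cultures or of whether the knockout cells are 1 clone or several, so p values measure the spread between these libraries, which may be technical. Library codes in the labels begin with SA for both wild-type libraries and knockout 1 and with SB for knockouts 2 and 3, and what the codes stand for is not given in the sources used here.

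snRNAs are the RNA cores of the particles that remove introns. U1 pairs with the 5′ splice site and U2 with the branch point, while U5 holds the exon ends and U4 delivers U6 in a base-paired form that is unwound before catalysis. U6atac takes the place of U6 in the minor spliceosome. Most snRNA genes are short, lack introns, are present in several copies and pseudogenes, and are transcribed by RNA polymerase II with 3′ ends made by the Integrator complex, while U6 and U6atac are made by RNA polymerase III. Their transcripts carry no poly(A) tail, so that a total RNA library, not a poly(A) library, is needed to read them.

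GENCODE 29 (GRCh38) gave the sequence and position of 27 of the 28 genes. RNVU1-8 was not found in it and is described by its counts alone. Of the 28 genes, 17 lay on chromosome 1, and 9 carried a pseudogene symbol. The U1 genes are shown first because they differ in sequence and moved in both directions. RNU1-1 lies at chr1:16514122-16514285 on the minus strand, RNVU1-7 at chr1:148038753-148038916 (minus), RNVU1-6 at chr1:146052081-146052244 (minus), RNVU1-14 at chr1:145281116-145281279 (plus), RNVU1-4 at chr1:120942600-120942763 (plus) and RNVU1-3 at chr1:148402715-148402875 (plus). Capitals in RNU1-1 mark the stretch that pairs with the 5′ splice site, and capitals in the other lines mark bases that are not matched in the alignment to RNU1-1.
RNU1-1: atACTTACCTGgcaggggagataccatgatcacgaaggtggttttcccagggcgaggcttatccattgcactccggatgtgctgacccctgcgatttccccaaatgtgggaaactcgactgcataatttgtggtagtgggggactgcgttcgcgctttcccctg
RNVU1-7: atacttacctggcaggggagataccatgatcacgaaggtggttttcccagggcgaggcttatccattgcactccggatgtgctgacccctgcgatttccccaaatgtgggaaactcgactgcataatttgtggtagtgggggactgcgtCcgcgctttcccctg
RNVU1-6: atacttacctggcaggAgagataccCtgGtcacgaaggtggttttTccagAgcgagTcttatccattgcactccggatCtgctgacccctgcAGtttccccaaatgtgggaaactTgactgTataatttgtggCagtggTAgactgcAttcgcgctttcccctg
RNVU1-14: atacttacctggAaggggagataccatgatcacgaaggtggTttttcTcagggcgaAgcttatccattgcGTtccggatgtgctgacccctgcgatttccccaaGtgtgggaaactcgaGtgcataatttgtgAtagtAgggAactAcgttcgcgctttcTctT
RNVU1-4: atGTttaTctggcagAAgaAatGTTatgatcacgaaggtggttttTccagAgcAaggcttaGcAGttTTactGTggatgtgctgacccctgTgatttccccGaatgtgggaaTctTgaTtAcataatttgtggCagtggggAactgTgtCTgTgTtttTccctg
RNVU1-3: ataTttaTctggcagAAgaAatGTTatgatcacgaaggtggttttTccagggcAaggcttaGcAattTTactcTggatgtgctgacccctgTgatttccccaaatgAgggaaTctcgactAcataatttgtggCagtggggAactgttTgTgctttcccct

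The 7 genes RNU1-1, RNU1-2, RNU1-3, RNU1-4, RNU1-27P, RNU1-28P and RNVU1-18 shared the 164-nt sequence printed for RNU1-1 and had identical counts in every library, since reads cannot be assigned among them. They are therefore 1 measurement, and the 28 genes give 22 distinct measurements. A further 2 rows, named by an Rfam identifier in place of a symbol, held the same counts. Each of these 9 rows holds only a part of the shared reads. RNVU1-7 differed from RNU1-1 by T150C alone (RNU1-1's base first, positions counted from 1 at the 5′ end) and was 99.4% identical to it. RNVU1-6 was 90.9% identical with 15 substitutions, none of them in the stretch that pairs with the 5′ splice site. RNVU1-14 was also 90.9% identical, RNVU1-3 was 84.1% identical and RNVU1-4 was 79.9% identical.

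The motif ACTTACCTG was searched on both strands as a description of the 5′ ends. It was found on the sense strand in 10 of the 27 genes with a sequence, which were the 7 identical genes, RNVU1-7, RNVU1-6 and RNVU1-14, against 2.37% of the 1817 snRNA rows with a sequence. On the antisense strand it was found in none of the 27. RNVU1-3 carried C4T and C8T there, and RNVU1-4 carried A3G, C4T and C8T. The first 11 bases were ATATTTACTTG in RNU1-13P, GTAGTTACCTG in RNU1-120P and CTAATTACCTG in RNU1-122P, which the table of names used here lists as RNVU1-2, RNVU1-22 and RNVU1-21.

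Of the other classes, a U2 sequence and both U4 sequences are shown, as the copies whose values carry the comparisons. RNU2-1 lies at chr17:43233787-43233977 (minus) in an intron of CCDC200, RNU4-2 at chr12:120291763-120291903 (minus) and RNU4-1 at chr12:120293097-120293237 (minus). Capitals mark the branch-point pairing stretch in RNU2-1, and in RNU4-1 they mark bases that differ from RNU4-2.
RNU2-1: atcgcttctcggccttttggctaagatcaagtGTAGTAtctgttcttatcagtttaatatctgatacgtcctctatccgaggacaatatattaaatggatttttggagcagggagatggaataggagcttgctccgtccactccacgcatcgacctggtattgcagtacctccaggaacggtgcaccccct
RNU4-2: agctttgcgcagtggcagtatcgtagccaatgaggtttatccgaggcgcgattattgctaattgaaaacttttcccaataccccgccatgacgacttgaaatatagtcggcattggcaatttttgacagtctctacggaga
RNU4-1: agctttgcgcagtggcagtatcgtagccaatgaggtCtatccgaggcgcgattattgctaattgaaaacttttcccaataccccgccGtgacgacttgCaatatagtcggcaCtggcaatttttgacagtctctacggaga

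RNU4-1 differed from RNU4-2 by T37C, A88G, A99C and T113C (RNU4-2's base first, counted from its 5′ end). The Sm-type site ATTTNTG, where the Sm protein ring assembles, was present on the sense strand in 18 of the 27 genes, against 26.97% of the 1817 rows, and on the antisense strand in 2, against 16.57%. Those 18 were U1, U2 and U4 genes. The 6 U5 genes held ATTTTTTG instead, which 1.38% of the rows held on the sense strand and 0.33% on the antisense strand.

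Membership was thus selected on the counts themselves. Just inside the threshold by second-highest count were RNU1-122P with 14, RNU5E-6P with 17.8 and RNU5A-8P with 21, and just outside were RNU2-17P with 9, RNU5D-1 with 7 and RNU1-85P with 6. RNU1-120P, RNU1-122P and RNU5A-8P reached the threshold through knockout libraries alone, so a higher value in the knockout was built into their choice. RNVU1-3 reached it in the 3 knockout libraries and in MOLT-14 STAG2 only, so without knockout counts it would have failed. Its choice favours a higher knockout value too. No gene reached the threshold through wild-type libraries alone. RNU5F-1 reached it in both wild-type libraries and knockout 3 only, so its choice favours a lower knockout value. Among the rows left out, RNU12 had 40.3 counts in wild type 1 and 0 in the other libraries, and RNU4ATAC had 45 counts in wild type 1 and 3 to 6 in the others. RNU7-1 had 0 counts in every library. U12 and U4atac are, like U6atac, RNAs of the minor spliceosome.

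The libraries differed in depth and in how much short RNA they held. Totals were 32609485 and 33145516 counts in wild type, 65262329 to 93970572 in knockout, and 38678382 and 45013450 in the empty-vector and STAG2 libraries of MOLT-14. Small RNA genes as a whole took 20.97% and 14.87% of counts in wild type and 11.96%, 13.98% and 13.7% in knockout. Levels are given as CPM, counts per 1000000 of the TMM-scaled library total. STAG2 itself stood at 315 and 537 CPM in wild type and at 166 to 239 CPM in knockout, and it went from 56 to 6878 counts with transduction. Cohesin's other STAG subunit, STAG1, rose from 50.3 to 129 CPM on average in the knockout (adjusted p 0.00222). T-lineage markers were at 1 CPM or more in every library for 11 of 14 genes. The 6 myeloid markers summed to 7.06 and 7.67 CPM in wild type and to 0.122 to 0.219 CPM in knockout, with 1 of the 6 at 0 in all libraries. Their part in the snRNA result was not tested.

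Wild type 1 stood apart in snRNA content before any comparison of groups. The 28 genes took 0.713% of the counts in wild type 1 and 0.131% in wild type 2, against 0.0265%, 0.029% and 0.028% in the knockout libraries. Wild type 1 exceeded wild type 2 in 15 of the 22 measurements, by up to 21.9-fold, while over all genes tested the median ratio of the 2 libraries was 1.01. Changes of called snRNA genes are therefore given with and without wild type 1. Fewer RNA molecules per cell and a lower share of cells with them cannot be told apart in bulk samples.

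**Figure D1:**
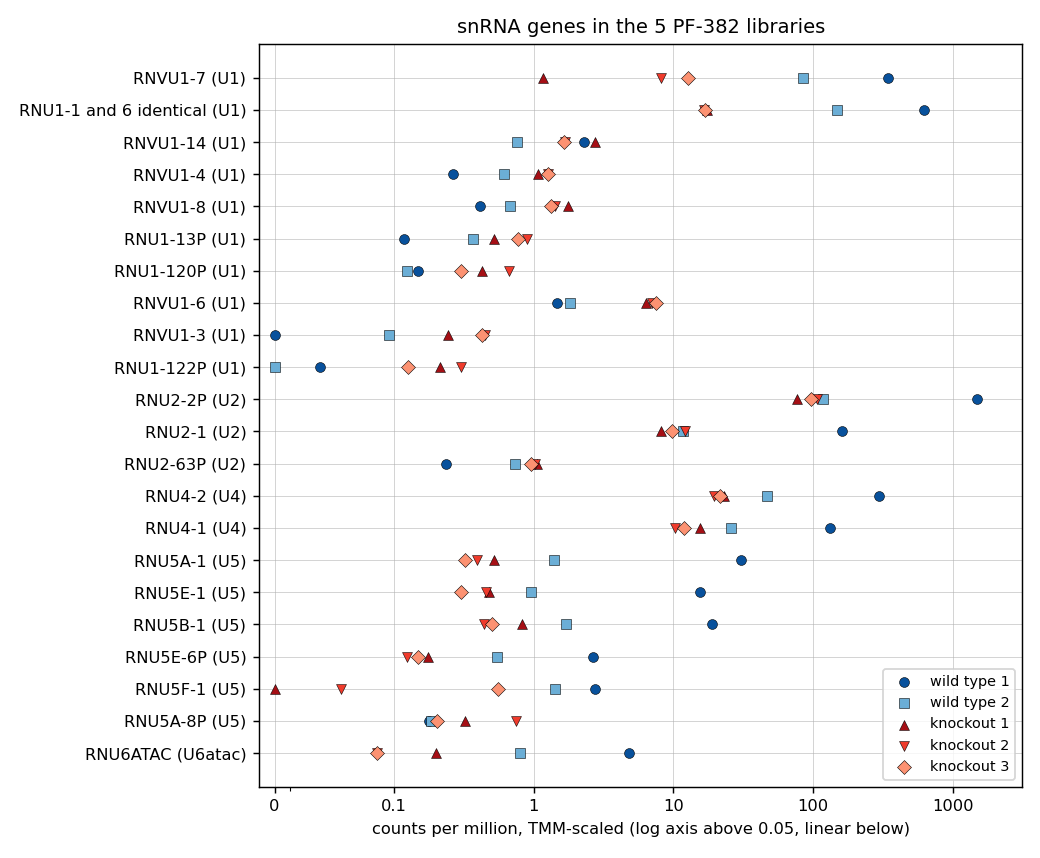
TMM-scaled CPM (x, log axis with a linear stretch near 0) of the 22 distinct snRNA measurements in the 2 wild-type (blue) and 3 knockout (red) PF-382 libraries, 1 point per library. RNVU1-7, at the top, runs from 1.17 CPM in knockout 1 to 346 CPM in wild type 1. RNU1-1 and its identical copies, in the next row, run from 17 CPM in knockout to 619 CPM in wild type 1. Most of the less alike U1 genes below them have their red points to the right of their blue points.

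In PF-382, the leading copies of U1, U4 and U5, and the less abundant U6atac, were lower in the STAG2 knockout than in both wild-type libraries. The fall of U2 rested on wild type 1, with a log2 ratio of the U2 sum of -3.09, and of -0.30 without that library. Some other U1 genes were higher. Of the 25 genes not chosen through knockout counts alone, 17 fell (as 11 measurements), 4 rose and 4 did not pass, at an adjusted p under 0.05. The 4 that rose include RNVU1-3, whose choice also favours a rise, so its call is no support for one in this or later counts. With the 3 genes chosen through knockout counts alone included, whose direction the choice favours, 17 of 28 were called lower and 5 higher. Over all genes tested, 30.4% were called, 15.8% higher and 14.6% lower. The median log2 change was -3.42 over the 25 genes and -3.23 over all 28, beside -0.02 over all genes tested. Knockout values lay wholly below wild type in 17 of the genes (11 of the 22 measurements), against 29.5% of all genes tested. They lay wholly above in 6 of the 25 (9 of all 28), against 30.4% (59.8% for either direction). The 17 include RNU5F-1 and the 6 include RNVU1-3, whose choice favours those directions. The groups overlapped for RNU2-1 and RNVU1-14 only.

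Without wild type 1, 14 of the 17 lower calls and 1 of the 4 higher calls (that of RNVU1-6) were kept among the 25 genes, with 34.7% of all genes called in that fit (19.6% higher and 15% lower). The lost calls were RNU2-1, RNU2-2P, RNU5E-1, RNVU1-3, RNVU1-4 and RNVU1-8. Without wild type 2, 17 genes were called lower and 6 higher, with 34.1% of all genes called (19.3% higher and 14.9% lower). In the SA-coded libraries alone, both wild-type libraries and knockout 1, 9 genes were called lower and 0 higher, with 1.82% of all genes called. Of the 15 called measurements among the 25 genes, 2 stayed called whichever of the 5 libraries was left out, the U1 measurement of RNU1-1 and RNVU1-6.

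**Figure D2:**
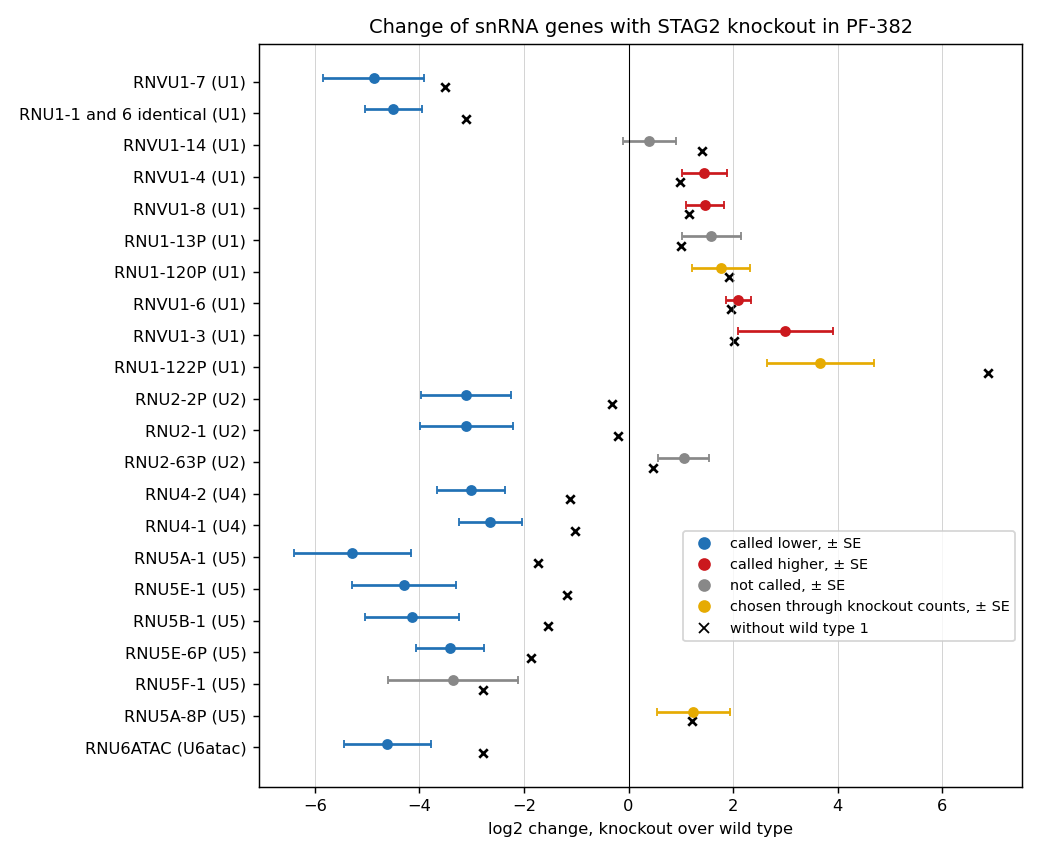
Log2 change, knockout over wild type (x), of the 22 snRNA measurements in PF-382, with the standard error as bars, colour for the call (yellow for the 3 genes chosen through knockout counts, which are given as a description) and black crosses for the same fit without wild type 1. The crosses of RNU2-1 and RNU2-2P lie at -0.20 and -0.32, against -3.10 for both with wild type 1, whereas the cross of RNU1-1 lies at -3.12.

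RNU1-1 and its 6 identical copies encode the U1 RNA that recognises 5′ splice sites. Each of the 7 rows stood at 619 and 148 CPM in wild type and at 17.4, 16.6 and 16.8 CPM in knockout. Both wild-type libraries were above all 3 knockout libraries, which lay within 1 CPM of each other. The log2 change was -4.50 ± 0.55 (SE, adjusted p 0.00397) and -3.12 without wild type 1 (adjusted p 4.3e-05).

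RNVU1-7, the near-copy with 1 changed base, stood at 346 and 85.0 CPM in wild type and at 1.17, 8.16 and 12.6 CPM in knockout. Its knockout values were spread far more widely than those of RNU1-1, with knockout 1 lowest. It fell by 4.87 ± 0.97 on the log2 scale (adjusted p 0.0140), with a change of -3.51 without wild type 1 (adjusted p 0.0214), but the call was lost without knockout 2 (adjusted p 0.0541). The ratio of RNVU1-7 to a single RNU1-1 row, 1 of 9 with identical counts, was 0.559 and 0.574 in wild type and 0.0676, 0.490 and 0.752 in knockout. Reads of the shared sequence can be divided between these rows in more than 1 way, and their sum with the identical rows varied less, at 123, 125 and 130 CPM in knockout against 4676 and 1121 CPM in wild type.

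RNVU1-6, a U1 variant with the full 5′ pairing stretch, moved the other way. It stood at 1.46 and 1.81 CPM in wild type and at 6.41, 7.03 and 7.55 CPM in knockout. The groups did not overlap, and the 2 wild-type libraries were close to each other. RNVU1-6 rose by 2.10 ± 0.24 on the log2 scale (adjusted p 0.00361) and by 1.96 without wild type 1 (adjusted p 0.00307). Its ratio to a single RNU1-1 row went from 0.00235 and 0.0122 in wild type to 0.369, 0.422 and 0.449 in knockout. That row is 1 of 9 with identical counts, so against all of them together RNVU1-6 is far lower than these ratios.

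RNVU1-4 and RNVU1-8, both with whole-number counts in every library, were low but measurable. RNVU1-4 stood at 0.265 and 0.613 CPM in wild type and at 1.07, 1.26 and 1.27 CPM in knockout. It rose by 1.45 ± 0.43 on the log2 scale (adjusted p 0.0451), with 0.98 and an adjusted p of 0.0840 without wild type 1. Its call was also lost when library sizes were taken from protein-coding genes (adjusted p 0.0519) or from the upper quartile (0.0597). RNVU1-8 stood at 0.412 and 0.675 CPM in wild type and at 1.77, 1.42 and 1.32 CPM in knockout. It rose by 1.47 ± 0.36 on the log2 scale (adjusted p 0.0265), and without wild type 1 the change was 1.17 (adjusted p 0.0537).

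RNVU1-3 and RNU1-122P had almost no counts in wild type. RNVU1-3 needed knockout counts to reach the threshold, so the choice favoured its rise and its p values are no support for one. RNVU1-3 held 3 counts over both wild-type libraries and 92 over the knockout libraries, a ratio per scaled total of 8.56 with a counting interval of 2.84 to 42.3 (exact binomial, 95%, counting error only). Its adjusted p was 0.0480, and 0.0845 without wild type 1. With upper-quartile or protein-coding scaling it was 0.0561 and 0.0519. RNU1-122P held 1 count in wild type and 52 in knockout, and is given with no test because knockout counts alone brought it over the threshold. The calls of RNVU1-4, RNVU1-8 and RNVU1-3 were also lost when any 1 knockout library was left out, with adjusted p up to 0.124, 0.0811 and 0.117.

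RNU1-13P and RNVU1-14 were not called. RNU1-13P had a log2 change of 1.59 (adjusted p 0.0735; 0.999 without wild type 1) and RNVU1-14 one of 0.39 (0.583; 1.40 without wild type 1). RNU1-120P, also chosen through knockout counts, had one of 1.77, given with no test. RNVU1-14 stood at 2.29 and 0.755 CPM in wild type and at 2.75, 1.66 and 1.64 CPM in knockout, with wild type 2 lowest, and without wild type 2 its log2 change was -0.17.

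**Figure D3:**
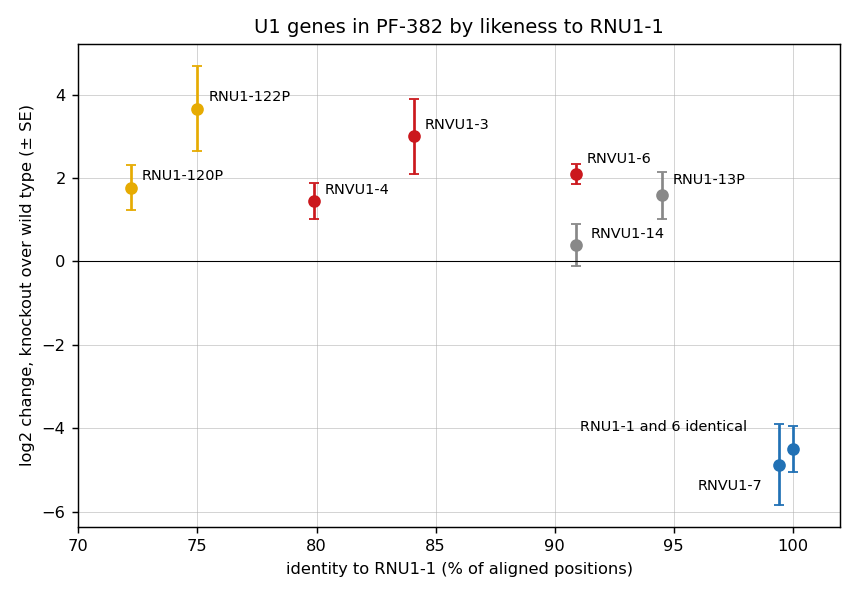
Log2 change in PF-382, knockout over wild type (y, bars are SE), against identity to RNU1-1 in percent (x) for the 9 U1 measurements with a sequence. RNU1-1 and RNVU1-7 at 100% and 99.4% identity lie at -4.50 and -4.87. The 7 points between 72.2% and 94.5% lie above 0, RNU1-120P and RNU1-122P (yellow) having been chosen through knockout counts. The choice of RNVU1-3 also favours a higher value.

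Summed over copies, U1 went from 4680.5 and 1126 CPM in wild type to 136, 138 and 144 CPM in knockout. The 8 genes with at least 99% identity to RNU1-1 made up nearly all of it in wild type. The 5 genes below 99% that were not chosen through knockout counts alone still include RNVU1-3, whose choice favours a rise. They summed to 4.13 and 3.64 CPM in wild type and to 10.99, 11.3 and 11.7 CPM in knockout. Their log2 ratio was 1.54, given with no test. That sum differed 1.13-fold between the 2 wild-type libraries, whereas the sum of the RNU1-1-like genes differed 4.17-fold. As shares of U1 reads, RNVU1-6 made up 0.0311% and 0.161% in wild type and 4.71%, 5.08% and 5.25% in knockout.

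U2 pairs with the branch point, and RNU2-2P, an expressed U2 gene despite its symbol, lay at chr11:62841619-62841809 inside an untranslated exon of WDR74 on the same strand. RNU2-2P stood at 1498 and 118 CPM in wild type and at 76.7, 108 and 97.5 CPM in knockout. Wild type 1 alone was far above the rest, and wild type 2 was 1.24 times the knockout mean for the U2 sum. The fall of RNU2-2P, -3.10 ± 0.87 (adjusted p 0.0382), became -0.32 without wild type 1 (adjusted p 0.232). RNU2-1 stood at 161 and 11.6 CPM in wild type and at 8.13, 12.2 and 9.76 CPM in knockout, so that wild type 2 lay within the knockout range. Its log2 change was -3.10 ± 0.89 (adjusted p 0.0409), and -0.20 without wild type 1 (adjusted p 0.561). Both calls were also lost when any 1 knockout library was left out.

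The proportion of the 2 U2 copies varied less than their level. RNU2-2P was 9.33 and 10.1 times RNU2-1 in wild type and 9.44, 8.84 and 9.99 times in knockout. RNU2-1 shared its counts with 10 further rows that carry an Rfam identifier in place of a symbol, and against the sum of these 11 rows RNU2-2P was 0.804 to 0.921 times as high in the 5 PF-382 libraries. WDR74, whose exon contains RNU2-2P, went the other way, from 31.1 ± 6.71 to 56.0 ± 1.76 CPM (SD, adjusted p 0.0112). RNU2-63P, a whole-count pseudogene row, was not called (log2 change 1.05, adjusted p 0.148; 0.47 without wild type 1).

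U4 holds U6 in an inactive pairing until the spliceosome is activated. RNU4-2 stood at 299 and 46.6 CPM in wild type and at 23.1, 19.5 and 21.5 CPM in knockout. RNU4-1, whose gene lies beside it, stood at 132 and 25.7 CPM in wild type and at 15.6, 10.3 and 11.9 CPM in knockout. Both wild-type libraries were above the knockout for both genes. RNU4-2 fell by 3.02 ± 0.66 on the log2 scale (adjusted p 0.0184), and without wild type 1 the change was -1.11 (adjusted p 0.00208). RNU4-1 fell by 2.65 ± 0.60 (adjusted p 0.0209), and without wild type 1 the change was -1.02 (adjusted p 0.0176). For each, leaving out any 1 of the 3 knockout libraries ended the call, with adjusted p up to 0.0706 and 0.0770. RNU4-2 was 1.48 to 2.27 times RNU4-1 in PF-382, with wild type 1 highest.

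U5 carries the loop that holds the 2 exon ends together. RNU5A-1 stood at 30.6 and 1.39 CPM in wild type and at 0.518, 0.395 and 0.320 CPM in knockout. Wild type 1 was 21.9 times wild type 2, the widest gap of any measurement with a count in both, yet both were above the knockout. RNU5A-1 fell by 5.29 ± 1.12 on the log2 scale (adjusted p 0.0170), against -1.74 without wild type 1 (adjusted p 0.0212). RNU5B-1 fell by 4.14 ± 0.90 (adjusted p 0.0184), against -1.54 without that library (0.0376). RNU5E-1 fell by 4.30 ± 0.997 (adjusted p 0.0222), and the change without wild type 1 was -1.18 (0.0852).

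RNU5E-6P, a pseudogene row, fell by 3.42 ± 0.66 on the log2 scale (adjusted p 0.0130). The change was -1.87 without wild type 1 (0.0382), and the call was lost without knockout 2 or 3, with adjusted p up to 0.0547. RNU5F-1 stood at 2.74 and 1.41 CPM in wild type and at 0, 0.0428 and 0.555 CPM in knockout. The knockout values lay below both wild-type values but differed widely among themselves, and the change of -3.36 did not pass (adjusted p 0.0835; -2.79 without wild type 1). RNU5A-8P, a pseudogene row chosen through knockout counts, had a log2 change of 1.23, given with no test. The calls of RNU5A-1, RNU5B-1 and RNU5E-1 were each lost when any 1 knockout library was left out, with adjusted p up to 0.0712, 0.0742 and 0.0855.

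RNU6ATAC, the only minor-spliceosome snRNA to reach the threshold, lies at chr9:134164439-134164564 (minus). It stood at 4.83 and 0.798 CPM in wild type and at 0.198, 0.0748 and 0.0757 CPM in knockout, from 164 and 26 counts against 13, 7 and 6. Both wild-type libraries were above the knockout. RNU6ATAC fell by 4.61 ± 0.84 on the log2 scale (adjusted p 0.0108), against -2.79 without wild type 1 (adjusted p 0.0224), and its adjusted p was 0.0510 without knockout 3.

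Per 100 nt of gene length, mean levels in wild type were 423 CPM for RNU2-2P, 234 for each RNU1-1 row, 131 for RNVU1-7, 123 for RNU4-2, 55.9 for RNU4-1, 45.1 for RNU2-1, 13.8 for RNU5A-1 and 2.23 for RNU6ATAC. The RNU1-1 and RNU2-1 values here are for a single row, of 9 and 11 rows with identical counts, so they do not rank the RNAs by their full level. The 2 wild-type libraries were apart by 4.07-fold for RNVU1-7 to 21.9-fold for RNU5A-1, so the order of these means largely follows wild type 1. In wild type 2, RNU2-2P (118 CPM, 191 nt) stood below each RNU1-1 row (148 CPM, 164 nt). RNVU1-7 lay below RNU1-1 and RNU4-1 below RNU4-2 in both wild-type libraries. In knockout the same scale gave 49.2 CPM for RNU2-2P, 15.2 for RNU4-2, 10.3 for each RNU1-1 row, 8.94 for RNU4-1, 5.25 for RNU2-1, 4.47 for RNVU1-7 and 4.27 for RNVU1-6. Thus RNVU1-6, at 0.995 CPM per 100 nt in wild type, stood beside RNVU1-7 in knockout by the mean only. By library RNVU1-6 was at 6.41, 7.03 and 7.55 CPM, and RNVU1-7 was at 1.17, 8.16 and 12.6 CPM.

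Properties of the libraries moved with the groups. The mean fragment length implied by the deposited counts and TPM was 167 and 180 nt in wild type (179.5 in wild type 2) and 199, 202 and 211 nt in knockout, so that fragment length and genotype cannot be told apart here. Among 83 tested snoRNA and scaRNA genes with a single annotated transcript, which are of like length but guide RNA modification, 68 were called lower and 0 higher by edgeR, with a median log2 change of -2.08. Their median difference between wild type 1 and wild type 2 was 0.91 on the log2 scale. RN7SK, a longer RNA made by RNA polymerase III that regulates transcription elongation, took 8.18% and 7.58% of counts in wild type and 5.41%, 6.07% and 6.13% in knockout, and was not called (log2 change -0.39, adjusted p 0.157). The part of fragment length in the snRNA result was not tested.

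**Figure D4:**
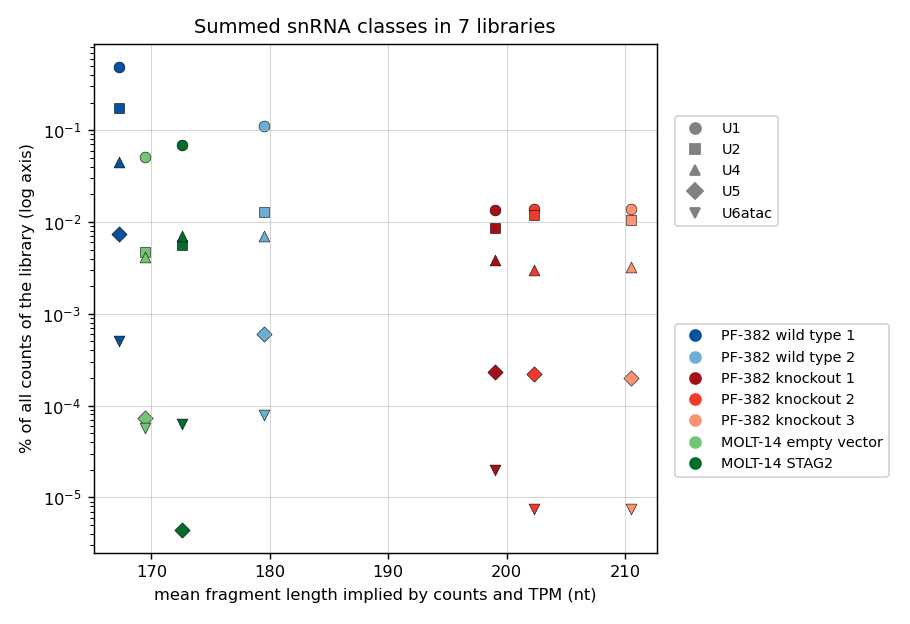
Share of each library's counts taken by the summed snRNA classes (y, percent, log axis) against the mean fragment length implied by counts and TPM in nt (x), 1 point per class and library, shape for class and colour for library. The 3 knockout libraries lie at 199 nt or more with U1 near 0.014%, and the 4 others lie at 179.5 nt or less with U1 between 0.0513% and 0.488%.

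Genes that overlap an snRNA row on the same strand give a further measurement of the loci. AC245014.3, a long noncoding RNA whose exon contains RNVU1-14, rose from 4.47 ± 0.367 to 19.7 ± 1.97 CPM (SD, adjusted p 0.00218). AL021155.2, whose exon contains RNU5E-1, rose from 22.8 ± 4.62 to 51.2 ± 10.8 CPM (adjusted p 0.0119), while RNU5E-1 fell. LINC00623, with RNVU1-4 in an intron, had a log2 change of -1.13 (adjusted p 0.0522), and LINC01138, with RNU1-13P and RNU1-122P in introns, one of -1.72 (0.0741). The strand setting of the counting is not given in the sources used here, so reads of overlapping genes may have been divided between them.

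The genes that build, import and process snRNA particles were more often higher than lower in PF-382. Of 130 tested genes in 11 lists, 59 rose, 1 fell and 70 did not pass, where 15.8% of all genes tested rose and 14.6% fell, with a median log2 change of 0.44 beside -0.02 over all genes. The median of all genes was -0.18 under upper-quartile scaling, and the counts were then 40 higher and 4 lower. They were 50 higher and 1 lower when library sizes came from protein-coding genes, where the median of all genes was -0.087, and 60 higher and 6 lower without wild type 1.

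The Sm proteins form the ring around the Sm site, and 7 of their 8 genes rose. SNRPD3 went from 87.2 ± 7.17 to 169 ± 3.81 CPM (SD, adjusted p 0.00397), and SNRPG and SNRPE also rose, by 1.17 and 0.81 on the log2 scale. In the LSM list 3 of 8 rose, LSM7 (0.91) and LSM4 (0.73), which the nuclear ring on U6 and the cytoplasmic mRNA decay ring share, and LSM1 (0.41), of the decay ring only, whose call was lost in every leave-one-out fit. LSM8, which is specific to the U6 ring, had a change of -0.18 (adjusted p 0.258). Of the U1 proteins 2 of 6 rose, SNRNP70 (0.78) and SNRPC (0.77). Of the U2 proteins 7 of 14 rose, with SF3B3, part of the branch-point complex, at 202 ± 39.7 and 413 ± 13.1 CPM. In the U4/U6 and U5 list 8 of 17 rose, including PRPF31, which binds U4, from 36.5 ± 3.57 to 73.9 ± 0.659 CPM, and EFTUD2, the U5 GTPase, from 117 ± 11.8 to 248 ± 5.38 CPM.

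Of 10 minor-spliceosome protein genes, 2 rose and 1 fell. SNRNP25, a protein of the U11/U12 particle, rose from 39.1 ± 4.64 to 103 ± 5.33 CPM (adjusted p 0.00269). RNPC3, which also belongs to that particle, fell by 0.86 ± 0.19 on the log2 scale (adjusted p 0.0208), a call lost when any 1 knockout library was left out.

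In the list of SMN-complex and import genes, which load the Sm ring in the cytoplasm and bring the particle back, 11 of 20 rose. WDR77 and PRMT5, which methylate Sm proteins, went from 24.8 ± 3.82 to 80.4 ± 2.41 CPM (adjusted p 0.00218) and from 51.3 ± 2.43 to 120 ± 5.63 CPM (0.00269). NCBP1, the large subunit of the nuclear cap-binding complex, went from 47.4 ± 4.55 to 143 ± 5.25 CPM (0.00218). These 3 genes and GEMIN5, which recognises snRNAs (log2 change 1.01), kept their calls whichever library was left out.

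Among the genes that transcribe snRNAs, 4 of 15 rose, SNAPC2 (0.83), ICE2 (0.52), ICE1 (0.50) and SNAPC5 (0.49 on the log2 scale), and each call was lost without 1 or more of the knockout libraries. In the Integrator list 5 of 14 rose, led by INTS9 (1.11), INTS3 (0.66) and INTS11 (0.69), whose calls were likewise lost. Of 11 genes for 3′ ends and modification 6 rose, among them METTL16, which methylates U6, from 25.4 ± 0.958 to 66.0 ± 1.95 CPM (adjusted p 0.00218), a call kept whichever library was left out. In the U7 list, 4 of 7 rose, including SLBP (0.79), the histone stem-loop binder, whose call was lost without knockout 1 or 3.

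In MOLT-14, U1, U2 and U4 reads were higher with STAG2 than with the empty vector. With 1 library per group there is no replicate check, and intervals cover counting error only. Of the 28 genes, 12 (6 measurements) reached 5 CPM in either library, and 2 of them, RNVU1-7 and RNU4-2, were past 2-fold higher and 0 past 2-fold lower. Over all genes at that level, 1.97% were past 2-fold, 1.08% higher and 0.892% lower. The median log2 ratio of the 6 measurements was 0.73, beside 0.03 over all genes.

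RNU1-1 and each identical copy went from 66.8 CPM with the empty vector to 98.4 CPM with STAG2, a log2 ratio of 0.56 (95% interval 0.49 to 0.63). RNVU1-7 went from 9.24 to 24.6 CPM, a log2 ratio of 1.41 (1.24 to 1.59), so that its ratio to a single RNU1-1 row went from 0.138 to 0.250. Among U1 genes under 5 CPM, RNVU1-6 went from 1.65 to 4.66 CPM, a log2 ratio of 1.47 (1.09 to 1.91). The same 5 genes below 99% identity summed to 6.04 and 12.1 CPM, a ratio of 2.003. RNVU1-8 and RNU1-120P had 0 counts in both, which allows up to 0.0731 CPM with the empty vector and 0.0707 CPM with STAG2.

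RNU4-2 went from 16.5 to 33.8 CPM, a log2 ratio of 1.03 (0.90 to 1.17), and RNU4-1 from 22.4 to 41.8 CPM, one of 0.90 (0.78 to 1.02). In this line RNU4-1 was the more abundant U4 copy, with RNU4-2 at 0.736 and 0.808 times its level, whereas RNU4-2 was the higher in all 5 PF-382 libraries. RNU2-2P had a log2 ratio of 0.46 (0.37 to 0.56) and RNU2-1 one of 0.18 (-0.03 to 0.39), an interval that includes 0. RNU2-2P was 4.36 and 5.31 times the single RNU2-1 row, below its proportion in each PF-382 library. Against the sum of the 11 rows with the counts of RNU2-1, it was 0.396 and 0.483 times as high.

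U5 reads were few in MOLT-14, at 28 over the 6 genes in the empty-vector library and 2 in the STAG2 library. RNU5E-1 held 15 and 0 counts. Against the floor of 3 counts (0.0707 CPM) in the STAG2 library it was 5.17-fold lower, which takes the 15 counts as exact. With their counting error included, the interval of its log2 ratio reached up to -1.89, a smaller fall. RNU5A-1 held 7 and 1 counts and RNU5B-1 held 5 and 1. RNU6ATAC held 22 and 28 counts, a log2 ratio of 0.30 with an interval of -0.56 to 1.18.

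**Figure D5:**
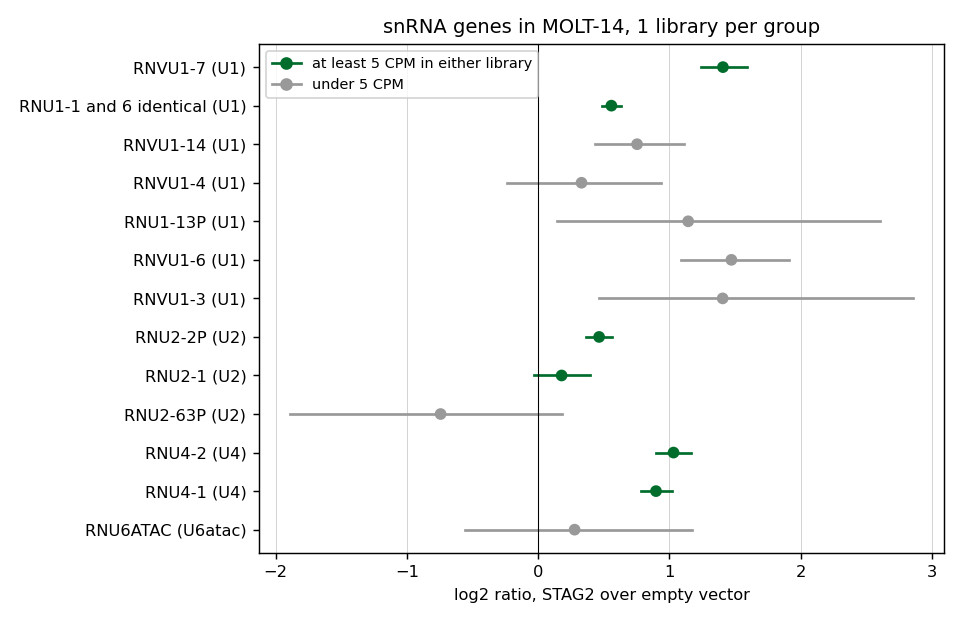
Log2 ratio, STAG2 over empty vector (x), for the 13 snRNA measurements with at least 20 counts over both MOLT-14 libraries, with exact binomial 95% intervals as bars that cover counting error only. The 4 U1 and U4 points in green lie between 0.56 and 1.41, and the interval of RNU2-1 includes 0.

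Other short RNA moved with the same 2 libraries. Small RNA genes as a whole took 4.87% of the empty-vector library and 9.27% of the STAG2 library, and RN7SK took 2.17% and 4.03%. The implied mean fragment length was 169.5 nt and 172.6 nt. The part of these in the snRNA ratios was not tested. Of the genes in the 11 lists, 129 reached 5 CPM, 0 were past 2-fold in either direction, and the median log2 ratio was 0.14.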

How the data were processed

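Total RNA was sequenced in 7 libraries of 2 cell lines. The authors' deposited files give expected counts per gene, not normalised, and TPM, scaled to a fixed sum per library by the authors. STAR, RSEM and the builds GRCh38 and hg38 come from the submitters' processing notes, without versions. Annotation and strand setting are not given in the sources used here. Expected counts were rounded, and 92 spike-in features were left out. Counts of 18 of the 28 genes were fractional, so their reads are shared with other rows. The PF-382 test used edgeR 4.0.16 under R 4.3.3 (TMM, filterByExpr, quasi-likelihood test, two-sided, Benjamini-Hochberg over all 17442 genes tested, threshold 0.05), after a test on simulated data. MOLT-14 was compared by log2 ratios of scaled counts with a prior count of 2. Class sums carry no test. TPM served only to derive mean fragment length. Intervals and floors of 3 counts leave out all but counting error, as reads lacking molecular identifiers need not be separate molecules, and 3 counts are 0.0321 to 0.0920 CPM.

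Members and lists were chosen with earlier results of these data known. Named genes were STAG2 and STAG1, the members of highest mean in each class or of at least 20 CPM, called members, members nearest the count threshold, and up to 4 called genes of each list by adjusted p. The remaining members were named to account for all of them. Alternatives were DESeq2 1.42.0, other scalings, no filter, leaving out each library, only the SA-coded libraries, and only members with whole counts. Markers of T-lineage, B-lineage, myeloid, erythroid and stromal cells were checked. The B-lineage list summed to 4.12 to 50.3 CPM, the erythroid list to at most 0.849 CPM, and the stromal list to 10.1 and 25.3 CPM in wild type, 6.80 to 9.19 CPM in knockout and 1.41 CPM in MOLT-14. Some sequences and an overlapping gene are not reported here.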

Additional observations from a re-analysis of the deposited data

How the results depend on the processing

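Fits with DESeq2, DESeq2 size factors, other scalings or no filter gave 20 to 24 snRNA genes called, against 22, with some genes changing: DESeq2 did not call RNU1-122P, and upper-quartile and protein-coding scaling did not call RNVU1-3 and RNVU1-4. Upper-quartile scaling changed the split of all calls from 2763 higher and 2548 lower to 1824 and 3566. Leaving out 1 library gave 2271 to 6304 genes called in all (5311 with every library), 9 to 23 snRNA genes called and 24 to 79 of the particle protein genes (60 with every library), and each of the 3 knockout libraries lowered these counts by over 1.5 times: without knockout 1, 2 or 3, 11, 9 and 10 snRNA genes were called, with 15.6%, 14.1% and 13.7% of all genes. With only the SA-coded libraries, 306 genes (1.82%), 9 snRNA genes, all lower, and 3 particle protein genes were called. All these snRNA counts take each identical U1 row as a separate gene. Without the genes chosen through knockout counts alone, 19 distinct measurements remain, of which 15 were called with every library. Of these 19, 5, 3 and 4 were called without knockout 1, 2 and 3, respectively. Leaving out 1 library also moved the log2 ratio of the class sums in PF-382. It ran over -5.05 to -3.001 for U1, -3.96 to -0.30 for U2 and -3.64 to -1.08 for U4. For U5 it ran over -4.99 to -1.49 and for U6atac over -5.35 to -2.77. Each class was nearest 0 without wild type 1. Sums over members with whole counts leave out RNU1-1 and both expressed U2 genes. They gave 1.66 for U1, 1.05 for U2 and -1.86 for U5 in PF-382. That U1 sum includes RNVU1-3 and other genes whose choice favours a higher knockout value. The U5 sum holds only a gene whose choice favours a fall and another chosen through knockout counts alone. Neither sum is therefore an independent check of direction. In MOLT-14 they gave 0.77 for U1 and -0.83 for U2, against 0.59 and 0.40 with all members. In MOLT-14 the U1 sum was 0.54 and 1 gene was past 2-fold, against 2, with upper-quartile scaling, and the U2 sum was 0.26 with the Rfam-named rows added, an alternative chosen after seeing the data. The cause of these shifts was not tested. Counts were few in the rows under the threshold and for U5 in MOLT-14, which limits precision there. No paired analysis was possible because the labels give the groups no shared replicate numbers.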
